A study of Arabidopsis thaliana with 4 samples.

Results

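Transcript levels in Arabidopsis thaliana seedlings carrying either of a pair of ribosome mutations were set, as a single group, against those of the Col wild type, and the response shared by both mutants was described across all genes. The group held 2 of the 4 libraries of the series: 1 of atprmt3, a mutant of the gene for the protein arginine methyltransferase PRMT3, and 1 of rps2a2b, whose name refers to gene copies encoding RPS2, a protein of the small ribosomal subunit. The other 2 libraries came from Col. RNA was taken from whole seedlings after 12 days on a medium with 1% sucrose, under days of 16 h light and nights of 8 h at 22 °C. The alleles, the number of seedlings pooled and the number of lines were not given in the sources used here. The series as a whole asks how PRMT3 and RPS2B act in the assembly of ribosomes.

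The cytosolic ribosome is built in the nucleolus from ribosomal RNA and ribosomal proteins, most of which are encoded in Arabidopsis by small families of near-identical genes. Numerous assembly factors, among them the methyltransferase fibrillarin and the scaffold protein NOP56, cleave, modify and fold the pre-ribosomal RNA. PRMT3 is known in yeast and animals to bind and methylate RPS2, and loss of ribosomal proteins or assembly factors in Arabidopsis is known for pointed leaves, slow growth and altered auxin responses.

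The comparison asked which transcripts lay farther from Col in both mutants than the mutants lay from each other. Total counts on genes were 18650053 in atprmt3 and 15194770 in rps2a2b, against 15646735 and 15637192 in Col. The Col libraries differed by no more than counting noise, with a chi-square per gene of 0.989 over 20569 genes (p = 0.858), whereas the chi-square per gene between the mutants was 17.25. The Col libraries were therefore summed and counted as 1 sample, so that the spread came from atprmt3 against rps2a2b with 1 residual degree of freedom, and Col was assumed to vary like the mutants. A difference shared by both mutants and a peculiarity of that Col sample cannot be told apart in this design. Reads falling on more than 1 gene made up 2.25% and 2.38% of reads in atprmt3 and rps2a2b, against 3.18% and 3.26% in Col, and the part of this difference in the results was not tested.

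The genes that the mutants are named for did not move together. PRMT3 (AT3G12270, on chromosome 3, 3910481 to 3913376 in TAIR10.1) had 132 counts in atprmt3 and 315 in rps2a2b, against 237 and 254 in Col. It was below Col in atprmt3 and above Col in rps2a2b, and the mutants as a group were not called (adjusted p = 0.696, log2 fold change -0.32 ± 0.38, where the value after ± is the standard error of the fit with 2 mutant samples and 1 Col sample, here and below). The gene commonly called RPS2A is annotated as XW6 (AT1G58380, chromosome 1, 21688935 to 21690290), of the ribosomal protein S5 family, and had 580 counts in atprmt3 and 167 in rps2a2b, against 334 and 318 in Col. It was low in rps2a2b and high in atprmt3, so the mutants again lay on opposite sides of Col, and 71.1% of its exonic 50-base words occurred once in the TAIR10.1 genome. AT1G59359, taken as RPS2B, had 0 counts in every library, and 0% of its words were unique, so its level could not be measured by reads that map once. AT3G57490, a further S5 family member, had 416 counts in atprmt3 and 380 in rps2a2b, against 194 and 157 in Col. Both mutants were above both Col libraries, and it was called higher (1.96-fold, adjusted p = 0.0299). It was not called with DESeq2 (adjusted p = 0.141) or, by edgeR, without Col replicate 2 (adjusted p = 0.0976).

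Markers of seedling tissues were present in every library. The summed level of 4 leaf mesophyll markers was 32095 CPM in atprmt3 and 25280 CPM in rps2a2b, against 36940 and 36775 CPM in Col, where CPM is the TMM-scaled count relative to a library of 1e6 counts. The 5 root markers summed to 2987 and 3727 CPM in atprmt3 and rps2a2b, against 2734 and 2745 CPM in Col. Nearly all of that sum was PYK10, at 2925 and 3676 CPM in the mutants, against 2645 and 2656 CPM in Col, while CASP1, SCR and TIP2;3 lay below Col in both mutants, with log2 fold changes of -0.73, -0.64 and -0.64. The 2 shoot meristem markers summed to 35.9 and 40.9 CPM, against 23.13 and 23.55 CPM in Col, and none of these 11 markers was called. The 2 pollen and the 2 seed coat markers were at 0 in all libraries, and 4 flower organ markers summed to 5.89 and 3.84 CPM in the mutants, against 5.10 and 4.03 CPM in Col. Of 4 embryo regulators, LEC1 and LEC2 were at 0 in all libraries, FUS3 had 14 counts in atprmt3 and 7 in rps2a2b, against 12 and 9 in Col, and ABI3 alone was called. In these bulk samples fewer cells of a type and less RNA per cell cannot be told apart.

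Of 21060 genes tested, 689 (3.27%) were called higher and 513 (2.44%) lower in both mutants together, by edgeR's quasi-likelihood test with Benjamini-Hochberg adjustment over all genes tested at 0.05, which is 5.71% in either direction. At an unadjusted p of 0.05, 2287 genes were higher and 1947 lower. The called genes were of unlike size by direction: the median log2 fold change was 1.32 among genes called higher (quartiles 0.905 and 2.66) and -0.90 among genes called lower (quartiles -1.20 and -0.745). At least 4-fold differences numbered 229 among the higher and 34 among the lower genes, and at least 16-fold differences 114 and 2. The genes called higher together took 4.07% of all counts in atprmt3 and 4.8% in rps2a2b, against 1.94% in Col. The genes called lower took 4.92% in atprmt3 and 4.89% in rps2a2b, against 9.15% in Col. In all 1202 called genes both mutant libraries lay on the same side of both Col libraries, which the test all but fixes, since its spread is the distance between the mutants. Over all genes tested, both mutants lay above both Col libraries in 34.0% of genes and below both in 33.1%, so that a side alone set few genes apart. The median over all genes tested was 0.019, a value that the TMM scaling holds near 0.

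**Figure D1:**
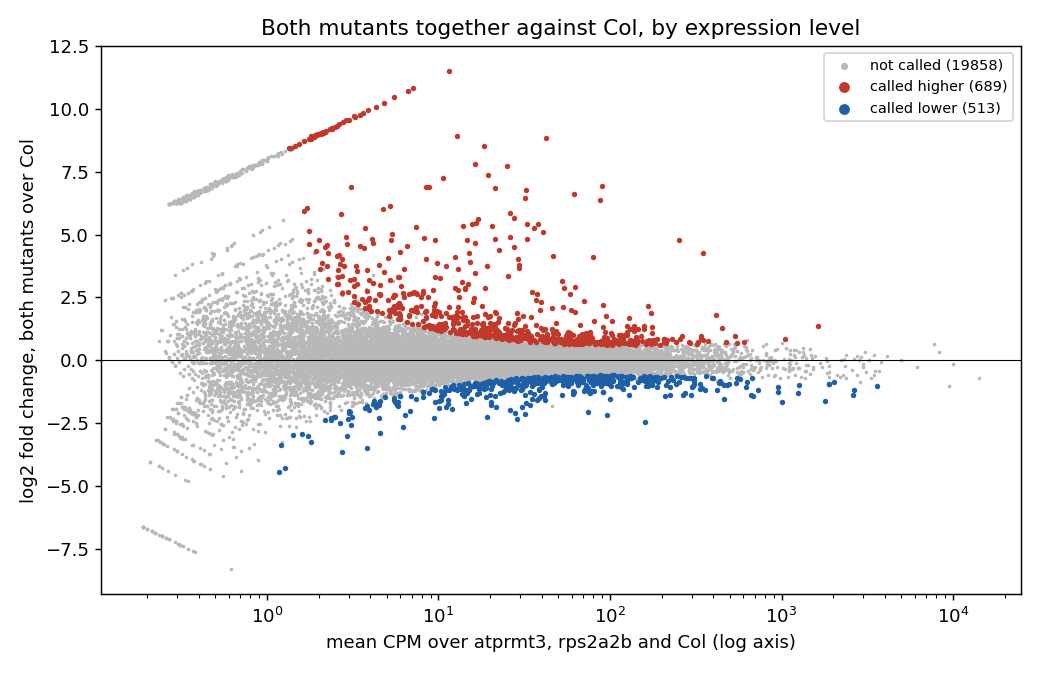
Each point is 1 of 21060 tested genes, with its mean CPM over atprmt3, rps2a2b and Col on a log axis and the log2 fold change of both mutants over Col on the vertical axis. Red points (689) were called higher and blue points (513) lower; the red points reach far above the range of the blue ones, and the straight upper band of red and grey points is of genes without a count in Col.

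The size of difference that could be called depended on the level. No gene with a mean under 1 CPM was called among 1833 tested, and between 1 and 5 CPM the smallest called log2 difference was 1.47. It was 0.83 between 5 and 20 CPM, 0.59 between 20 and 100 CPM and 0.58 above 100 CPM, where 5.04% of genes were called higher and 6.95% lower. The mutants differed from each other by a median absolute log2 ratio of 0.256 over all genes tested, against a median absolute log2 fold change of 0.336 for the mutants over Col. In 12164 genes (57.8%) the mutants lay farther from Col than from each other. Of 2983 genes at least 2-fold from Col, 2318 were not called. The median absolute log2 ratio between the mutants was 0.259 among genes called higher and 0.199 among genes called lower, and it exceeded 1 in 99 and 15 of them. The difference from Col was larger in rps2a2b than in atprmt3 for 434 of 689 genes called higher and for 280 of 513 genes called lower.

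**Figure D2:**
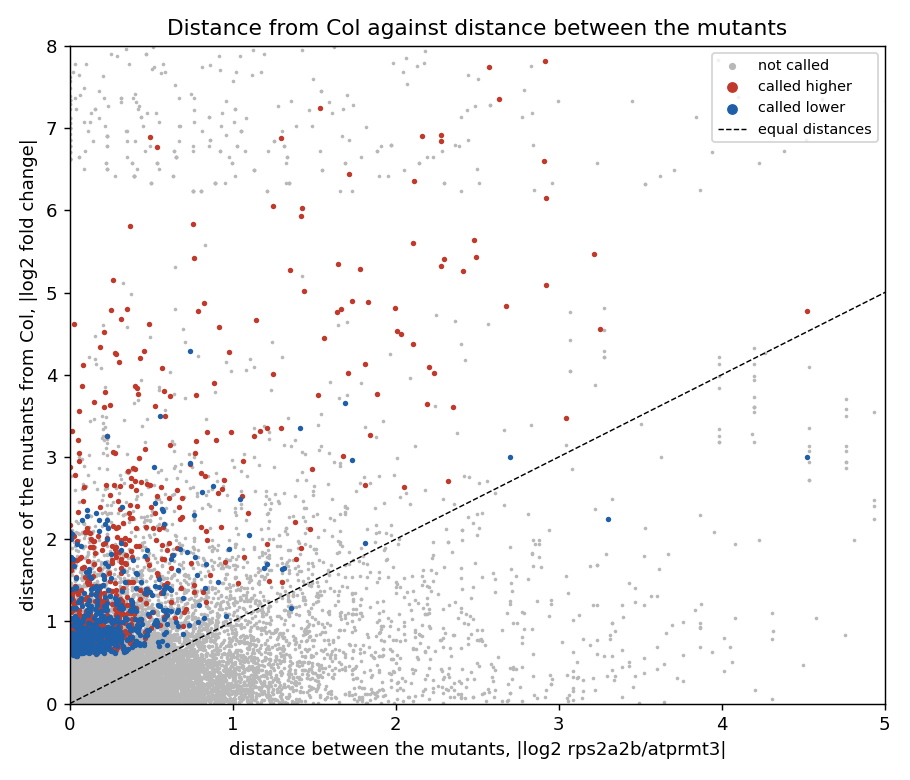
Each tested gene is placed by the absolute log2 ratio between rps2a2b and atprmt3 (horizontal axis) and the absolute log2 fold change of both mutants over Col (vertical axis), with the dashed line at equal values. The called genes (red higher, blue lower) lie above the line, where the test places them, except for 4 under it, and 351 genes, 46 of them called, fall outside the axes.

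Transcripts of most cytosolic ribosomal proteins were higher in both mutants. Of 205 ribosomal protein genes tested, 63 (30.7%) were called higher and 0 lower, beside 3.27% and 2.44% of all genes tested. Their median log2 fold change was 0.55, beside 0.019 over all genes tested. Single ribosomal protein genes ranged between -0.48 and 8.18, and 10 were below 0. In 186 of the 205 genes both mutants lay above both Col libraries, in 4 below, and in 15 the groups overlapped. Over all genes tested 34.0% lay above and 33.1% below. Their summed level was 29679 CPM in atprmt3 and 27736 CPM in rps2a2b, against 20132 and 20208 CPM in Col. The mutants differed little in them, with a median absolute log2 ratio of 0.13. For the small subunit (40S) 17 of 84 genes were called higher, with a median of 0.47, and for the large subunit (60S) 46 of 121, with a median of 0.62. These counts moved with the test, between 12 and 61 for 40S and between 31 and 96 for 60S genes over 12 alternatives, of which the highest had Col as 2 samples. No large-subunit gene was called lower except 1 with Col as 2 samples.

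Among small-subunit genes RPS6 (AT4G31700), a target of the TOR pathway kinase S6K, had 424 CPM in atprmt3 and 372 CPM in rps2a2b, against 219.5 and 217 CPM in Col. Both mutants were above both Col libraries, with a log2 fold change of 0.87 ± 0.19 (adjusted p = 0.0119, edgeR). AT5G58420, of the RPS4 family, had 259 CPM in atprmt3 and 241 CPM in rps2a2b, against 146 and 139.8 CPM in Col (1.75-fold, adjusted p = 0.0126). AT5G02960, of the S12/S23 family, had 255.9 CPM in atprmt3 and 226 CPM in rps2a2b, against 148 and 152 CPM in Col (1.605-fold, adjusted p = 0.034). In all 3 genes atprmt3 was slightly above rps2a2b, and both were above the Col pair. AT4G39200, an S25 family gene, rose by the smallest factor of these, 1.58-fold (adjusted p = 0.0344). AT5G59240, of the S8e family, was measured at 24 counts in atprmt3 and 34 in rps2a2b, against 0 and 0 in Col, a level at least 17.01-fold over the floor of 3 counts in the Col libraries together, and was not called (adjusted p = 0.0663).

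In the large subunit AT2G47610, of the L7Ae family, had 441 CPM in atprmt3 and 424 CPM in rps2a2b, against 251 and 256.0 CPM in Col, a log2 fold change of 0.77 ± 0.19 (adjusted p = 0.0221, edgeR). SAC52 (AT1G14320), a copy of RPL10, had 388 CPM in atprmt3 and 362 CPM in rps2a2b, against 231 and 224 CPM in Col (1.65-fold, adjusted p = 0.0294). AT5G27850 (L18e family) and AT1G67430 (L22p/L17e family) were higher by 1.68-fold and 1.56-fold. In all 4 genes the mutants stood together and apart from Col, with atprmt3 and rps2a2b within a log2 ratio of 0.10 of each other. A much larger change was seen for AT2G40010, of the L10 family, at 17.5 CPM in atprmt3 and 22.3 CPM in rps2a2b, against 3.08 and 2.48 CPM in Col (7.11-fold, adjusted p = 0.000104), a gene with low counts in Col. The 39 plastid ribosomal protein genes tested, by contrast, had a median of 0.14 and 0 calls by edgeR, with 1 higher and 1 lower at an unadjusted p of 0.05 and 0 calls by DESeq2 or limma-voom.

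Some ribosome assembly genes were higher as well. Of 45 genes of ribosome biogenesis and the nucleolus 7 (15.6%) were called higher and 0 lower, with a median of 0.25. Over all genes tested 3.27% were called higher and 2.44% lower. NOP56 (AT1G56110), a core protein of box C/D ribonucleoproteins, had 188 CPM in atprmt3 and 207 CPM in rps2a2b, against 111 and 116 CPM in Col (1.74-fold, adjusted p = 0.013). A second NOP56-like gene, AT5G27120, was 1.67-fold higher (adjusted p = 0.0237). NAP57 (AT3G57150), the homologue of the pseudouridine synthase dyskerin, had 161 CPM in atprmt3 and 196 CPM in rps2a2b, against 102 and 109 CPM in Col (1.69-fold, adjusted p = 0.0228). Both mutants were above both Col libraries in each of these genes, with rps2a2b the higher mutant. FIB2 (AT4G25630), a fibrillarin that methylates ribosomal RNA, had 53.6 CPM in atprmt3 and 42.3 CPM in rps2a2b, against 24.3 and 24.4 CPM in Col (1.97-fold, adjusted p = 0.0112), here with atprmt3 the higher. The largest change was in NUC-L2 (AT3G18610), a nucleolin-like protein that is weakly expressed in wild-type plants, at 18.04 CPM in atprmt3 and 18.5 CPM in rps2a2b, against 2.68 and 2.62 CPM in Col (6.88-fold, adjusted p = 0.000113). Of 33 translation factor genes 1 was called, EIF4E (AT4G18040), the cap-binding protein, at 1.68-fold (adjusted p = 0.038), and their median was 0.15. That is 3.03% of the list called higher, beside 3.27% of all genes tested. RAPTOR1 (AT3G08850), a subunit of the growth-regulating TOR complex, was the single called gene of 6 in the TOR pathway and was lower, at 103 CPM in atprmt3 and 95.5 CPM in rps2a2b, against 152 and 156 CPM in Col (log2 fold change -0.63 ± 0.17, adjusted p = 0.0338). It was not called with upper-quartile factors, no low-count filter, DESeq2 or without Col replicate 2 (adjusted p between 0.0523 and 0.0698), nor with the length and GC trend removed, which left a log2 fold change of -0.21 (adjusted p = 0.528).

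Promoter sequences of 3 of these genes are shown because the telo-box and site II motifs, which are known from plant ribosomal protein promoters, recur in them. Each is the stretch from 250 bases before to 50 bases after the annotated start in RefSeq's TAIR10.1, printed 5′ to 3′ on the gene's strand, with motif matches in capitals. AT5G58420 covers chr5:23619209-23619508 on the plus strand, AT5G02960 chr5:694466-694765 on the minus strand and NOP56 chr1:20986903-20987202 on the minus strand.
AT5G58420: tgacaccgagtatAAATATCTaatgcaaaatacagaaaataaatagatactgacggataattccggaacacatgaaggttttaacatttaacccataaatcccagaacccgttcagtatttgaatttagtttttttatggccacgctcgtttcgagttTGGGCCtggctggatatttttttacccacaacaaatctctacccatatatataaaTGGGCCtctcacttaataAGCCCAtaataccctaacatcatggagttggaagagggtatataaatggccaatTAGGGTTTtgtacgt
AT5G02960: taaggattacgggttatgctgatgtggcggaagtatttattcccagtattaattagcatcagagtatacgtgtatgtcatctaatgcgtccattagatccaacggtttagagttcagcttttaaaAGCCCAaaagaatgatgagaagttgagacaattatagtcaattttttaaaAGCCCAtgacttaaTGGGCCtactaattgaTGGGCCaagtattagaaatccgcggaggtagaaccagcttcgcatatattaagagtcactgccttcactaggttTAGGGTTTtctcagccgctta
NOP56: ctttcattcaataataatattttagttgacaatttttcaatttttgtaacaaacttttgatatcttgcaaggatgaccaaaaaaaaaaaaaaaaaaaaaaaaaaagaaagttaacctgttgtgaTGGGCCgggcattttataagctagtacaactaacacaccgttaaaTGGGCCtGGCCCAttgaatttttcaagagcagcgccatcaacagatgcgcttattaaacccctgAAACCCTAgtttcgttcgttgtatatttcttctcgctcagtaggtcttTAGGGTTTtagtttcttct
The motifs searched on both strands were the telo-box AAACCCTA, read as TAGGGTTT on the other strand, site II as TGGGCC or TGGGCT, read as GGCCCA or AGCCCA, the RY motif CATGCA, read as TGCATG, the G-box CACGTG and the evening element AAATATCT, read as AGATATTT. Neighbouring site II matches can overlap, as can neighbouring RY matches. AT5G58420 held 3 site II matches, 1 telo-box and 1 evening element in this window, and AT5G02960 held 4 site II matches and 1 telo-box. NOP56 held 3 site II matches and 2 telo-boxes. A telo-box was found in 6.22% and site II in 21.7% of 27443 protein-coding promoters. Of the 63 ribosomal protein genes called higher 38.1% held a telo-box and 77.8% site II, and of the 142 tested and not called 53.5% and 77.5%. Among ribosomal protein genes, then, the called ones held site II as often as the others and the telo-box less often in this window, which is a description of these 205 promoters and not a test. Of the 7 called biogenesis genes 6 held a telo-box, beside 44.4% of the 45 genes of that list.

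Several genes of cell division were higher in both mutants. In the mitotic cell cycle list 9 of 36 genes (25%) were called higher and 0 lower, beside 3.27% and 2.44% of all genes tested. The list's median was 0.71. Of the 36 genes 28 lay above both Col libraries in both mutants, beside 34.0% of all genes tested. CDC20.1 (AT4G33270), an activator of the anaphase-promoting complex, had 46.6 CPM in atprmt3 and 53.4 CPM in rps2a2b, against 21.6 and 22.3 CPM in Col (2.28-fold, adjusted p = 0.00236). CDC20.2 (AT4G33260), its close copy, was 2.75-fold higher (adjusted p = 0.0237), and only 66.8% and 63.7% of the 50-base words of CDC20.1 and CDC20.2 were unique, so reads can be split between them. TPX2 (AT1G03780), a spindle assembly factor, had 33.7 CPM in atprmt3 and 46.2 CPM in rps2a2b, against 15.6 and 15.6 CPM in Col (2.55-fold, adjusted p = 0.00266). HIK (AT1G18370), a kinesin of cytokinesis, was 2.104-fold higher (adjusted p = 0.00836). The B-type cyclin CYCB1;1 (AT4G37490) had 11.8 CPM in atprmt3 and 10.6 CPM in rps2a2b, against 2.68 and 3.02 CPM in Col (3.93-fold, adjusted p = 0.00579). In these genes the mutants were within a factor of 1.5 of each other except in CDC20.2, whose level was 26.9 CPM in rps2a2b and 13.2 CPM in atprmt3. The count of 9 was 5 with DESeq2 and 20 with Col as 2 samples. The 2 shoot meristem markers given above were higher in both mutants in summed level as well, and the part of meristem tissue in this result was not tested.

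Some genes of DNA replication and some histone genes were also higher. Of 21 replication genes 4 (19%) were called higher, beside 3.27% of all genes tested. The median of the replication list was 0.495. TSO2 (AT3G27060), a subunit of ribonucleotide reductase, had 113 CPM in atprmt3 and 114 CPM in rps2a2b, against 60.8 and 60.05 CPM in Col (1.87-fold, adjusted p = 0.00559). The sliding clamp genes PCNA1 (AT1G07370) and PCNA2 (AT2G29570) were 1.89-fold and 1.904-fold higher, and the licensing factor CDT1A (AT2G31270) was 2.11-fold higher. Of 16 histone genes 4 (25%) were called higher, with a median of 0.64 over the list. AT1G09200, the most abundant of those called, had 81.01 CPM in atprmt3 and 77.03 CPM in rps2a2b, against 41.97 and 39.6 CPM in Col (1.94-fold, adjusted p = 0.00503). With DESeq2 1 replication and 1 histone gene were called, and without Col replicate 2 1 replication gene. The 18 CDK inhibitor and DNA damage genes tested had a median of 0.24 and 0 calls by edgeR, DESeq2 or limma-voom, with 4 higher and 1 lower at an unadjusted p of 0.05.

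**Figure D3:**
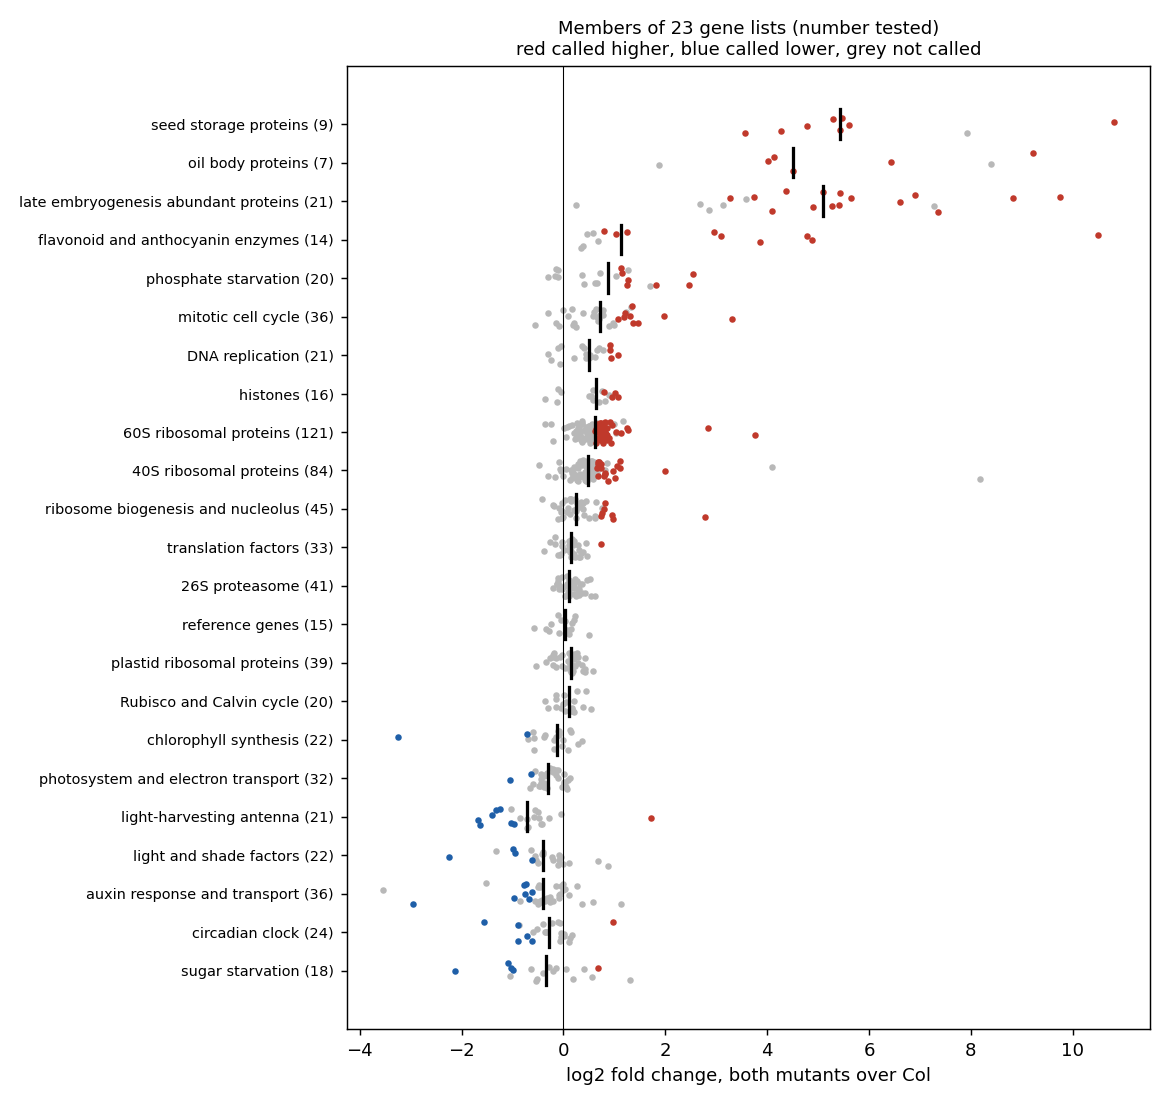
Each point is a tested gene of 1 of 23 lists (number tested in brackets), placed by its log2 fold change of both mutants over Col; red points were called higher, blue lower and grey not called, and black bars are list medians. Seed protein lists have medians between 4.50 and 5.43, ribosomal protein and cell cycle lists between 0.47 and 0.71, and the antenna list -0.71.

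The largest shared changes were in genes of seed maturation. Storage proteins, oleosins that coat oil bodies, and late embryogenesis abundant (LEA) proteins that protect dry tissue are normally made in the embryo and lost after germination. Of 37 such genes tested 28 (75.7%) were called higher and 0 lower, beside 3.27% and 2.44% of all genes tested. Their median log2 fold change was 5.27, or 4.78 with the 6 genes that had no Col counts set to their lower bound. A gene could pass the count filter on 1 sample. Those 6 genes were tested through the mutants alone and could not be called lower. Other members with few Col counts also passed through the mutants. The summed level of the 37 genes was 1146 CPM in atprmt3 and 3210 CPM in rps2a2b, against 253 and 260 CPM in Col. The response was of unlike size in the mutants: all 37 genes had a higher level in rps2a2b than in atprmt3, with a median absolute log2 ratio of 2.11, compared with 0.256 over all genes tested. The calls depended on the test. Storage protein genes were called in 8 of 9 cases, and in 2 with limma-voom and 3 with a robust prior. LEA genes were called in 15 of 21 cases, and in 4 with limma-voom and 1 with a robust prior. Oil body genes were called in 5 of 7 cases, and in 2 to 6 over the alternatives.

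The cruciferin gene CRA1 (AT5G44120), a major seed storage globulin, had 345 CPM in atprmt3 and 678 CPM in rps2a2b, against 24.7 and 27.9 CPM in Col. Its log2 fold change was 4.28 ± 0.35 (adjusted p = 1.36e-06, edgeR), and the log2 ratio of rps2a2b over atprmt3 was 0.98. CRU3 (AT4G28520), another cruciferin, had 273 CPM in atprmt3 and 471 CPM in rps2a2b, against 13.1 and 13.9 CPM in Col (27.4-fold, adjusted p = 1.67e-07). The albumin SESA1 (AT4G27140) had 112 counts in atprmt3 and 243 in rps2a2b, against 0 and 0 in Col, at least 106-fold over the Col floor. The oleosin OLEO1 (AT4G25140) had 22.1 CPM in atprmt3 and 72.6 CPM in rps2a2b, against 0.402 and 0.671 CPM in Col (86.7-fold, adjusted p = 3.33e-05). OLEO2 (AT5G40420) and the oleosin AT3G01570 were 16.2-fold and 22.6-fold higher. In every one of these genes both mutants were well above Col and rps2a2b was above atprmt3. Among LEA genes EM1 (AT3G51810) had 282 counts in atprmt3 and 1792 in rps2a2b, against 1 and 3 in Col (adjusted p = 0.000441). AT3G15670 had 46.05 CPM in atprmt3 and 223 CPM in rps2a2b, against 1.27 and 0.939 CPM in Col (120.4-fold, adjusted p = 5.9e-05), and AT2G42560 had 21.6 CPM in atprmt3 and 163 CPM in rps2a2b, against 0.939 and 0.939 CPM in Col (97.04-fold, adjusted p = 0.000553). The last had a log2 ratio of rps2a2b over atprmt3 of 2.91 and was among the 4 genes at 20 CPM or more that differed most between the mutants.

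ABI3 (AT3G24650), a B3-domain regulator of seed maturation, had 58 counts in atprmt3 and 126 in rps2a2b, against 2 and 2 in Col (log2 fold change 5.27 ± 1.04, adjusted p = 0.00565). It was the single gene called of 8 seed maturation regulators, whose median was 0.17. The 4 embryo regulators used as markers summed to 3.86 CPM in atprmt3 and 8.36 CPM in rps2a2b, against 0.939 and 0.738 CPM in Col, with LEC1 and LEC2 and both seed coat markers at 0, and the part of embryo tissue in the seed result was not tested. Oil mobilisation genes, which act after germination, had a median of 0.35, beside 0.019 over all genes tested. Beside 2.44% and 3.27% of all genes tested, 0 were called lower and 2 of 17 (11.8%) higher. These were PMDH1 (AT2G22780), a peroxisomal malate dehydrogenase, at 1.697-fold (adjusted p = 0.0271), and MLS (AT5G03860), malate synthase of the glyoxylate cycle, at 16.3 CPM in atprmt3 and 81.6 CPM in rps2a2b, against 7.58 and 7.25 CPM in Col (6.55-fold, adjusted p = 0.0106). MLS was far higher in rps2a2b than in atprmt3, as the seed protein genes were. MLS was not called with DESeq2, limma-voom, a robust prior or Col as 2 samples (adjusted p between 0.0609 and 0.665). PMDH1 was not called with no low-count filter, DESeq2 or without Col replicate 1 (adjusted p between 0.0508 and 0.0813).

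Promoters of CRA1 and OLEO1 are shown because RY motifs, bound by B3 factors such as ABI3, stand in both. CRA1 covers chr5:17758287-17758586 on the minus strand and OLEO1 chr4:12900180-12900479 on the plus strand, in TAIR10.1 and with motif matches in capitals.
CRA1: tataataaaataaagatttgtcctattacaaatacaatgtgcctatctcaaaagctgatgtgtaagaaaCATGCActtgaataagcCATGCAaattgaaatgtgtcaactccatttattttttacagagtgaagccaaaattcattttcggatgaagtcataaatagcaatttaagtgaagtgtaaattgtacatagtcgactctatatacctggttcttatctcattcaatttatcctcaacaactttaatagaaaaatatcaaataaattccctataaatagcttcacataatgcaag
OLEO1: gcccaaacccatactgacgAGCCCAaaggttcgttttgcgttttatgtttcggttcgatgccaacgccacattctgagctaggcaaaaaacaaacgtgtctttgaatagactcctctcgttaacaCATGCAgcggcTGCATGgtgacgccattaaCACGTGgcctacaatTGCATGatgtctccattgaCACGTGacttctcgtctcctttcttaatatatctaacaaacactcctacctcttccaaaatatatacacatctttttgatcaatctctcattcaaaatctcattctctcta
CRA1 held 2 RY matches in this window, and OLEO1 held 3 RY matches, 2 G-boxes and 1 site II match. RY was found in 9.72% and the G-box in 7.68% of all protein-coding promoters. RY was held by 91.7% of 12 storage protein promoters, by 100% of 8 oil body promoters and by 36.4% of 22 LEA promoters, and the G-box by 63.6% of the LEA promoters. Among all genes called higher 15.6% held RY and 14.0% the G-box, and among genes called lower 9.61% and 11.2%. Telo-boxes were in 10% of promoters of genes called higher and in 1.64% of those called lower, and site II in 24.7% and 13.3%, beside 5.51% and 25% of tested genes.

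**Figure D4:**
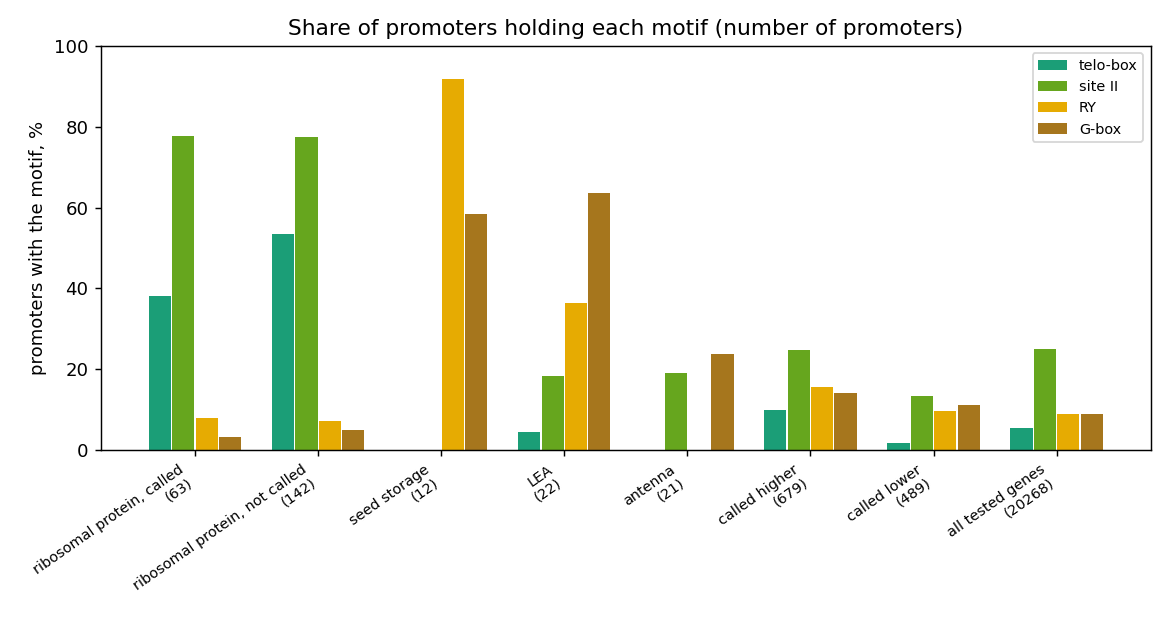
Bars give the share of promoters, from 250 bases before to 50 after the start, that hold the telo-box, site II, RY or G-box motif, in 8 groups of genes with the number of promoters in brackets. Site II is in 77.8% of called and 77.5% of not called ribosomal protein promoters, and RY is in 91.7% of storage protein promoters.

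Flavonoid and anthocyanin enzymes formed a further group of higher transcripts, in which the mutants differed by a median absolute log2 ratio of 0.25. Of 14 genes tested 9 (64.3%) were called higher and 0 lower, beside 3.27% and 2.44% of all genes tested. The list's median was 1.13, with between 8 and 11 genes called higher over the alternatives. TT4 (AT5G13930), the chalcone synthase that opens the pathway, had 215 CPM in atprmt3 and 202 CPM in rps2a2b, against 118 and 122 CPM in Col (1.74-fold, adjusted p = 0.0127). TT5 (AT3G55120), chalcone isomerase, and FLS1 (AT5G08640), flavonol synthase, were 2.36-fold and 2.04-fold higher. Later steps changed more. DFR (AT5G42800), dihydroflavonol reductase, had 13.9 CPM in atprmt3 and 14.6 CPM in rps2a2b, against 0.738 and 1.21 CPM in Col (14.5-fold, adjusted p = 5.9e-05), and LDOX (AT4G22880), which makes anthocyanidins, had 12.8 CPM in atprmt3 and 15.3 CPM in rps2a2b, against 0.738 and 0.268 CPM in Col (27.5-fold, adjusted p = 3.28e-05). The UDP-glycosyltransferase AT4G14090 was 8.59-fold higher. AT5MAT (AT3G29590), an anthocyanin acyltransferase, had 189 counts in atprmt3 and 102 in rps2a2b, against 0 and 0 in Col, at least 82.2-fold over the Col floor. Among 12 regulators MYB111 (AT5G49330), an activator of flavonol genes, was called higher (3.97-fold, adjusted p = 0.0288) and MYBL2 (AT1G71030), a repressor of anthocyanin synthesis, lower. MYBL2 had 14.4 CPM in atprmt3 and 9.68 CPM in rps2a2b, against 60.7 and 62.2 CPM in Col, a log2 fold change of -2.34 ± 0.23 (adjusted p = 9.18e-06), with no overlap between the groups. TT8 (AT4G09820), a bHLH activator, had 45 counts in atprmt3 and 44 in rps2a2b, against 5 and 3 in Col, and was not called (adjusted p = 0.0686).

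Several phosphate starvation genes were higher in both mutants, and the list had medians of 0.91 in atprmt3 and 0.94 in rps2a2b over Col. Of 20 genes 7 (35%) were called higher and 0 lower, beside 3.27% and 2.44% of all genes tested. The median was 0.88, and 7 were called by all but 1 of 12 alternatives, which called 11. PAP17 (AT3G17790), a purple acid phosphatase, had 56.6 CPM in atprmt3 and 56.7 CPM in rps2a2b, against 25.01 and 25.96 CPM in Col (2.22-fold, adjusted p = 0.00196). The phosphate transporter PHT1;4 (AT2G38940) had 45.9 CPM in atprmt3 and 52.1 CPM in rps2a2b, against 21.3 and 19.2 CPM in Col (2.42-fold, adjusted p = 0.00148). SRG3 (AT3G02040), a glycerophosphodiester phosphodiesterase, and the phosphate sensor SPX1 (AT5G20150) were 2.37-fold and 2.18-fold higher. In each the mutants lay together above the Col pair. PS2 (AT1G73010), a phosphatase, showed the largest change named here, at 16.6 CPM in atprmt3 and 19.7 CPM in rps2a2b, against 3.29 and 2.95 CPM in Col (5.79-fold, adjusted p = 0.000236).

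Ferritin transcripts were higher in both mutants. The ferritins FER1 (AT5G01600), FER3 (AT3G56090), FER4 (AT2G40300) and FER2 (AT3G11050), which store iron, were the 4 genes called higher of 21 iron genes. That is 19% of the list, beside 3.27% of all genes tested. FER1 had 149 CPM in atprmt3 and 123 CPM in rps2a2b, against 67.7 and 68.5 CPM in Col (2.001-fold, adjusted p = 0.00392). FER3 and FER4 were 1.898-fold and 1.74-fold higher. FER2 had 61 counts in atprmt3 and 238 in rps2a2b, against 10 and 11 in Col, and so stood much higher in rps2a2b, as seed genes did. Of the same list 2 genes (9.52%) were called lower, beside 2.44% of all genes tested. The ferric reductase FRO4 (AT5G23980) had 5.03 CPM in atprmt3 and 11.6 CPM in rps2a2b, against 25.4 and 27.8 CPM in Col (log2 fold change -1.70 ± 0.33, adjusted p = 0.00489), lowest in atprmt3. AT2G30766, an uncharacterised protein of the iron list, was also lower (log2 fold change -1.19 ± 0.27, adjusted p = 0.0153), and the list's median was 0.27. FRO6 (AT5G49730), a reductase outside that list that is expressed in green tissue, was among the 12 largest decreases, at 36.3 CPM in atprmt3 and 35.97 CPM in rps2a2b, against 153 and 150.2 CPM in Col (log2 fold change -2.07 ± 0.17, adjusted p = 1.39e-06). Of its words 83.8% were unique, so that a share of its reads may belong to a close copy.

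The stress, hormone and glucosinolate lists given next held between 1 and 4 calls each. Beside the 3.27% of all genes tested that were called higher, the share was 8.33% in the jasmonate list, 9.09% in the salicylic acid and defence list and 33.3% in the mitochondrial stress list. It was 6.67% in the endoplasmic reticulum list, 3.85% in the abscisic acid, cold and drought list and 3.7% in the glucosinolate list. The share called lower was 4.55% in the salicylic acid list, 3.85% in the abscisic acid list and 3.7% in the glucosinolate list. Over all genes tested it was 2.44%. Of 24 jasmonate genes 2 were called higher, the allene oxide cyclases AOC1 (AT3G25760) and AOC2 (AT3G25770) of jasmonate synthesis. AOC1 had 58.7 CPM in atprmt3 and 45.7 CPM in rps2a2b, against 14.7 and 11.7 CPM in Col (3.96-fold, adjusted p = 5.9e-05), and AOC2 was 1.96-fold higher (adjusted p = 0.00893), both highest in atprmt3. Among 22 salicylic acid and defence genes, FMO1 (AT1G19250), an enzyme of systemic resistance, had 43 counts in atprmt3 and 47 in rps2a2b, against 0 and 0 in Col, at least 26.1-fold over the Col floor (adjusted p = 0.019). WRKY18 (AT4G31800) was 3.94-fold higher (adjusted p = 0.0373). Neither was called by limma-voom or without Col replicate 1 or 2 (adjusted p of 0.0611 or more), and DESeq2 called FMO1 alone. By contrast BGL2 (AT3G57260), the pathogenesis-related glucanase PR2, had 19 and 11 counts in the mutants, against 160 and 133 in Col (adjusted p = 0.000997). Of 12 genes of mitochondrial stress 4 were called higher, among them UGT74E2 (AT1G05680), at 8.14 CPM in atprmt3 and 10.6 CPM in rps2a2b, against 1.41 and 1.54 CPM in Col (6.28-fold), AT2G21640, an oxidative stress marker (6.38-fold), GSTU24 (AT1G17170; 5.31-fold) and NDB2 (AT4G05020; 1.98-fold), an external NAD(P)H dehydrogenase. NAC103 (AT5G64060), a factor of the unfolded protein response, had 101 counts in atprmt3 and 61 in rps2a2b, against 1 and 0 in Col, and was the single gene called of 15 in the endoplasmic reticulum list (adjusted p = 0.00293). Of 26 abscisic acid, cold and drought genes KIN1 (AT5G15960) was higher (3.74-fold, adjusted p = 0.00399) and ADH1 (AT1G77120), alcohol dehydrogenase, lower (log2 fold change -0.64 ± 0.18, adjusted p = 0.0409). Of 27 glucosinolate genes IMS2 (AT5G23020), named for isopropylmalate synthase, was 2.92-fold higher (adjusted p = 0.000104) and CYP79B3 (AT2G22330), of indole glucosinolate synthesis, lower (log2 fold change -0.72 ± 0.17, adjusted p = 0.0202).

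**Figure D5:**
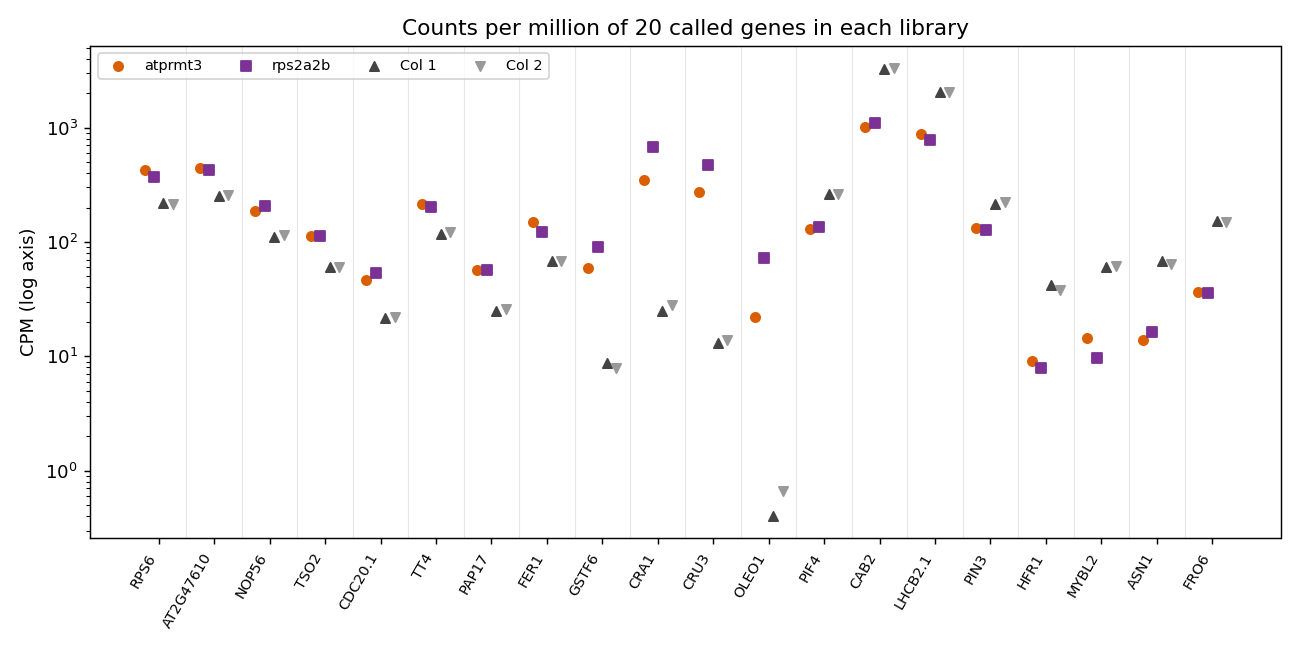
CPM on a log axis of 20 called genes in each library: atprmt3 (circles), rps2a2b (squares) and Col replicates 1 and 2 (triangles). The mutants lie together on 1 side of the Col pair in each gene, and in CRA1, CRU3 and OLEO1 rps2a2b lies above atprmt3.

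The lower transcripts included those of the light-harvesting antenna, the proteins that bind chlorophyll and pass light energy to the photosystems. Of 21 antenna genes 7 (33.3%) were called lower and 1 (4.76%) higher, beside 2.44% and 3.27% of all genes tested. The list's median was -0.71. Against 33.1% of all genes tested, both mutants lay below both Col libraries in 19 of the 21 antenna genes. Their summed level was 49817 CPM in atprmt3 and 41210 CPM in rps2a2b, against 80078 and 79989 CPM in Col. CAB3 (AT1G29910) had 2696 CPM in atprmt3 and 2657 CPM in rps2a2b, against 5523 and 5457 CPM in Col (log2 fold change -1.04 ± 0.29, adjusted p = 0.0434), the most abundant gene called lower. CAB2 (AT1G29920) had 1016 CPM in atprmt3 and 1100.0 CPM in rps2a2b, against 3268 and 3298 CPM in Col (log2 fold change -1.63 ± 0.24, adjusted p = 0.000487). LHCB2.1 (AT2G05100) had 874 CPM in atprmt3 and 784 CPM in rps2a2b, against 2066 and 2062 CPM in Col (log2 fold change -1.32 ± 0.22, adjusted p = 0.00169). In all of these Col stood clear above both mutants. LHB1B1 (AT2G34430) fell furthest among named antenna genes (log2 fold change -1.68 ± 0.21), and LHCB4.2 (AT3G08940) was lower as well (log2 fold change -0.98 ± 0.23, adjusted p = 0.0165). Between 76.5% and 89.4% of the words of CAB2, CAB3, LHCB2.1 and LHB1B1 were unique, so reads can be shared with close copies. CAB1 (AT1G29930) and LHB1B2 (AT2G34420), also below Col in both mutants, were not called (log2 fold changes -0.71 ± 0.44 and -1.03 ± 0.39). LHCB4.3 (AT2G40100) went the other way, with 23.2 CPM in atprmt3 and 13.8 CPM in rps2a2b, against 5.096 and 6.24 CPM in Col (3.29-fold, adjusted p = 0.00612). The count of 7 rose to 13 with DESeq2 and 15 with Col as 2 samples. It was 6 with upper-quartile factors, no low-count filter, at least 50 summed counts or either Col library left out. CAB3 was not called by edgeR in any of these last settings (adjusted p between 0.0552 and 0.083). Of the 4 leaf mesophyll markers given above only CAB1, itself an antenna gene, lay below Col in both mutants, at 12910 CPM in atprmt3 and 10344 CPM in rps2a2b, against 19205 and 18961 CPM in Col. CA1 had 3971 and 3218 CPM in the mutants, against 3136 and 3111 CPM in Col, and RBCS1A and RCA overlapped with Col. The part of leaf tissue in the antenna result was not tested.

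Other photosynthesis lists moved less. Of 32 photosystem and electron transport genes 2 were called lower, PSAD-2 (AT1G03130) of photosystem I, with 766 CPM in atprmt3 and 651 CPM in rps2a2b, against 1458 and 1463 CPM in Col (log2 fold change -1.04 ± 0.21, adjusted p = 0.00698), and the plastocyanin PETE1 (AT1G76100), with a log2 fold change of -0.63 ± 0.18 (adjusted p = 0.0477). The list's median was -0.29, and 6.25% of it was called lower, beside 2.44% of all genes tested. All 32 genes were lower in rps2a2b than in atprmt3. Of 22 chlorophyll synthesis genes GUN4 (AT3G59400), an activator of magnesium chelatase, was lower (log2 fold change -0.72 ± 0.17, adjusted p = 0.019), as was PORA (AT5G54190), the protochlorophyllide reductase of dark-grown seedlings, with 8 and 8 counts in the mutants, against 55 and 78 in Col (adjusted p = 0.0176). GUN4 and PORA, the 2 called, made up 9.09% of the chlorophyll synthesis list, beside 2.44% of all genes tested called lower. The 20 Rubisco and Calvin cycle genes had a median of 0.11 and 0 calls by edgeR, DESeq2 or limma-voom, with 1 higher and 0 lower at an unadjusted p of 0.05.

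Light signalling factors were lower in part. Of 22 light and shade genes 4 were called lower and 0 higher, with a median of -0.40. PIF4 (AT2G43010), a bHLH factor that promotes elongation, had 129 CPM in atprmt3 and 135 CPM in rps2a2b, against 263 and 263 CPM in Col (log2 fold change -0.99 ± 0.17, adjusted p = 0.00166). PIL6 (AT3G59060), also known as PIF5, had 64.8 CPM in atprmt3 and 86.4 CPM in rps2a2b, against 144 and 149 CPM in Col (log2 fold change -0.96 ± 0.19, adjusted p = 0.00495). HFR1 (AT1G02340), a bHLH factor that restrains PIF proteins, had 9.05 CPM in atprmt3 and 7.99 CPM in rps2a2b, against 42.4 and 38.2 CPM in Col (log2 fold change -2.24 ± 0.24, adjusted p = 2.5e-05). BBX21 (AT1G75540) was lower by the smallest amount (log2 fold change -0.61 ± 0.17, adjusted p = 0.0473). Both a factor that promotes elongation and a factor that restrains it were among the lower genes.

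Some auxin genes were lower in both mutants. Of 36 response and transport genes 7 (19.4%) were called lower and 0 higher, beside 2.44% and 3.27% of all genes tested. The list's median was -0.40. Of the 36 genes 24 lay below both Col libraries in both mutants, beside 33.1% of all genes tested. The efflux carriers PIN3 (AT1G70940) and PIN4 (AT2G01420) were lower, PIN3 with 134 CPM in atprmt3 and 127 CPM in rps2a2b, against 214 and 223 CPM in Col (log2 fold change -0.75 ± 0.17, adjusted p = 0.0132) and PIN4 with a log2 fold change of -0.62 ± 0.18 (adjusted p = 0.045). The influx carrier LAX1 (AT5G01240) had 57.99 CPM in atprmt3 and 48.7 CPM in rps2a2b, against 95.9 and 88.1 CPM in Col (log2 fold change -0.78 ± 0.18, adjusted p = 0.0151). DFL1 (AT5G54510), an enzyme that conjugates auxin, was lower (log2 fold change -0.76 ± 0.19, adjusted p = 0.0255). Of the auxin-induced repressors IAA2 (AT3G23030) had a log2 fold change of -0.97 ± 0.23, and IAA29 (AT4G32280) had 12 counts in atprmt3 and 3 in rps2a2b, against 50 and 52 in Col (adjusted p = 0.0492). The count of 7 fell to between 2 and 4 with upper-quartile factors, no low-count filter, DESeq2, the older quasi-likelihood fit or either Col library left out, and rose to 18 with Col as 2 samples.

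Clock, sugar and growth genes followed in smaller numbers. Of 24 circadian clock genes 5 (20.8%) were called lower and 1 (4.17%) higher, beside 2.44% and 3.27% of all genes tested. The list's median was -0.29. PRR7 (AT5G02810), a pseudo-response regulator, had 87.6 CPM in atprmt3 and 101 CPM in rps2a2b, against 152 and 159.6 CPM in Col (log2 fold change -0.73 ± 0.17, adjusted p = 0.0183). The MYB-like LCL1 (AT5G02840), the TCP factor TCP11 (AT5G08330), AT5G64170 and AT3G54500 had log2 fold changes of -0.90 ± 0.19, -0.89 ± 0.20, -0.61 ± 0.17 and -1.56 ± 0.19. RVE2 (AT5G37260) was the member called higher (1.97-fold, adjusted p = 0.0432), and CCA1 (AT2G46830), a core oscillator gene, was not called (log2 fold change -0.87 ± 0.31). Harvest time within the day was not given in the sources used here. Of 18 sugar starvation genes 4 (22.2%) were called lower and 1 (5.56%) higher, beside 2.44% and 3.27% of all genes tested. ASN1 (AT3G47340), the asparagine synthetase known to be repressed by sugar and light, had 13.8 CPM in atprmt3 and 16.2 CPM in rps2a2b, against 67.8 and 63.5 CPM in Col (log2 fold change -2.14 ± 0.20, adjusted p = 6.99e-06). DIN10 (AT5G20250), TPS8 (AT1G70290) and TPS11 (AT2G18700) were lower (log2 fold changes -1.04 ± 0.17, -0.995 ± 0.19 and -1.08 ± 0.21), and TPS5 (AT4G17770) was 1.59-fold higher (adjusted p = 0.0376).

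Among 27 cell wall loosening genes the expansins EXPA8 (AT2G40610), EXPA5 (AT3G29030) and EXPB3 (AT4G28250) were lower and XTH9 (AT4G03210) higher. EXPA8 had 100.1 CPM in atprmt3 and 66.9 CPM in rps2a2b, against 216 and 222 CPM in Col (log2 fold change -1.39 ± 0.20, adjusted p = 0.000409), EXPA5 and EXPB3 had log2 fold changes of -1.14 ± 0.20 and -0.69 ± 0.17, and XTH9 was 1.69-fold higher. CPD (AT5G05690), an enzyme of brassinosteroid synthesis, was the single called gene of 9 in its list, at 138 CPM in atprmt3 and 102 CPM in rps2a2b, against 248 and 244 CPM in Col (log2 fold change -1.03 ± 0.19, adjusted p = 0.00297). Of 22 flowering and phase change genes AGL20 (AT2G45660), the flowering integrator SOC1, was lower, with 13.3 CPM in atprmt3 and 9.56 CPM in rps2a2b, against 41.3 and 42.7 CPM in Col (log2 fold change -1.87 ± 0.24, adjusted p = 0.000135). SMZ (AT3G54990), a repressor of flowering, was higher, with 8.19 CPM in atprmt3 and 10.4 CPM in rps2a2b, against 2.35 and 2.21 CPM in Col (4.04-fold, adjusted p = 0.0108). In both the mutants lay together and clear of Col. Of the flowering and phase change list 4.55% were called higher and 4.55% lower, beside 3.27% and 2.44% of all genes tested. Of the cell wall loosening list 3.7% were called higher and 11.1% lower.

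In 15 of 48 lists, holding 254 tested genes, 0 genes were called by edgeR. At an unadjusted p of 0.05 these held 27 higher and 13 lower genes, DESeq2 called 1 higher and 1 lower, and limma-voom 0 higher and 1 lower. Besides the lists already given they covered the 26S proteasome, heat shock chaperones, cytokinin, ethylene and gibberellin genes, cellulose synthases, plasma membrane aquaporins, superoxide dismutases, meristem and leaf polarity genes, root hair genes, protein arginine methyltransferases and reference genes. The 41 proteasome genes, which degrade tagged proteins, had a median of 0.11. The 9 methyltransferase genes had a median of 0.093, and the 15 reference genes, such as the actin gene ACT8 (AT1G49240, log2 fold change -0.57 ± 0.18, adjusted p = 0.0732), a median of 0.024. The 8 root hair genes had a median of 0.80, and all 8 had a log2 fold change above 0. Among them RHD6 (AT1G66470), a regulator of root hair fate, had 46 counts in atprmt3 and 71 in rps2a2b, against 14 and 13 in Col (adjusted p = 0.142). CUC3 (AT1G76420), a boundary gene of the shoot meristem, had 39 counts in atprmt3 and 42 in rps2a2b, against 7 and 7 in Col, and was not called (adjusted p = 0.156).

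The 48 lists covered 199 of the 1202 called genes, and the largest changes lay partly outside them. Among the 12 largest increases at 5 CPM or more were 8 genes with seed-type products or LEA domains: AT1G72100, SESA1, AT5G66780, EM1, AT2G18540, AT4G21020, LEA and AT3G15670. AT1G72100 had 107 counts in atprmt3 and 459 in rps2a2b, against 0 and 0 in Col, at least 172-fold over the Col floor. AT1G04560, an AWPM-19-like membrane protein, had 148 and 747 counts in the mutants, against 1 and 1 in Col (adjusted p = 0.000648). Other increases were larger in atprmt3. MRD1 (AT1G53480) had 412 counts in atprmt3 and 260 in rps2a2b, against 0 and 1 in Col (adjusted p = 1.54e-06), and AT1G64795, an uncharacterised gene, had 442 and 130 counts, against 3 and 0 in Col (adjusted p = 0.000141). Neither had more than 3 counts in a Col library. AT1G72100, AT5G66780, EM1, AT2G18540, AT4G21020, LEA, AT3G15670, AT1G04560 and AT1G64795 lost their calls with limma-voom and with a robust prior. Their adjusted p was 0.064 or more in both settings. SESA1 lost its call with limma-voom (adjusted p = 0.0669).

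The 12 largest decreases among called genes averaging 5 CPM or more were smaller in size, and the mutants differed in them by log2 ratios of at most 0.88. AT2G15880, a leucine-rich repeat family protein, had 53.4 CPM in atprmt3 and 76.8 CPM in rps2a2b, against 352 and 350.4 CPM in Col (log2 fold change -2.43 ± 0.19, adjusted p = 1.16e-06). AT2G39850, a subtilisin-like endopeptidase, had 40.5 CPM in atprmt3 and 47.1 CPM in rps2a2b, against 199 and 199.8 CPM in Col (log2 fold change -2.19 ± 0.17, adjusted p = 1.09e-06). Both were clearly expressed in all 4 libraries and far lower in the mutants. AT5G44260, a zinc finger protein, AT2G05510, a glycine-rich protein, and PGL5 (AT5G24420), a phosphogluconolactonase, had log2 fold changes of -2.10 ± 0.21, -1.96 ± 0.22 and -2.31 ± 0.32. AT5G62280, of unknown function, showed the lowest value of these 12, -2.64 ± 0.42, from 30 and 47 counts in the mutants, against 219 and 198 in Col. AT4G22475 and MAKR6 (AT5G52900) had log2 fold changes of -2.18 ± 0.39 and -2.00 ± 0.37, and MYBL2, HFR1, ASN1 and FRO6 completed the set.

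By level, the 3 most abundant genes called higher were EXT4 (AT1G76930), a cell wall extensin, at 1758 CPM in atprmt3 and 2373 CPM in rps2a2b, against 779 and 806 CPM in Col (2.61-fold, adjusted p = 0.00593), NIT1 (AT3G44310), a nitrilase, at 1.78-fold (adjusted p = 0.038), and the mitochondrial locus ATMG00020, at 1.66-fold (adjusted p = 0.0409). ATMG00020 was not called with no low-count filter, the older quasi-likelihood fit or without Col replicate 1 (edgeR, adjusted p between 0.0534 and 0.0639). NIT1 was not called with no low-count filter (adjusted p = 0.0609). The 3 most abundant called lower were CAB3, the cell wall protein gene PRP4 (AT4G38770) and FAD2 (AT3G12120), an oleate desaturase. PRP4 had 2078 CPM in atprmt3 and 1594 CPM in rps2a2b, against 4183 and 4247 CPM in Col (log2 fold change -1.20 ± 0.28, adjusted p = 0.0153), and FAD2 had 1761 CPM in atprmt3 and 1609 CPM in rps2a2b, against 4435 and 4410.0 CPM in Col (log2 fold change -1.39 ± 0.26, adjusted p = 0.00414). Of 38 mitochondrial loci tested 6 were called lower and 1 higher, with a median of -0.77, and of 93 plastid loci 2 were called lower and 0 higher. Over all genes tested 2.44% were called lower and 3.27% higher. The mitochondrial loci together nevertheless held a larger share of counts in the mutants, 0.111% in atprmt3 and 0.135% in rps2a2b, against 0.0882% and 0.0902% in Col, most of it from ATMG00020, with 12649 and 11280 counts in the mutants, against 6130 and 6304 in Col.

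Gene families were counted by product name after the called genes had been seen. Of 57 peroxidase genes 13 were called higher and 1 lower, beside 3.27% and 2.44% over all genes. AT5G64120, a peroxidase, had 74.5 CPM in atprmt3 and 86.97 CPM in rps2a2b, against 13.5 and 12.1 CPM in Col (6.297-fold, adjusted p = 1.39e-06). Of 40 glutathione S-transferase genes 8 were called higher and 0 lower. GSTF6 (AT1G02930) had 58.9 CPM in atprmt3 and 89.99 CPM in rps2a2b, against 8.78 and 7.98 CPM in Col (8.85-fold, adjusted p = 2.26e-06), and its neighbour GSTF7 (AT1G02920) had 65.3 CPM in atprmt3 and 86.2 CPM in rps2a2b, against 10.7 and 10.13 CPM in Col (7.25-fold, adjusted p = 1.54e-06). In these 3 genes both mutants lay several fold above the Col pair. Of 68 lipid-transfer protein genes 11 were called higher and 8 lower, and AT4G12490 was 12.7-fold higher (adjusted p = 8.53e-07). Of 46 leucine-rich repeat family genes 9 were called lower and 0 higher. Of 29 genes of the NPH3 family, named for a protein of phototropic signalling, 4 were called lower and 0 higher.

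Not all large differences were shared. Genes at 20 CPM or more that differed most between the mutants were AT2G06845, AT3G53040, AT4G29020 and AT2G42560. AT2G06845, related to beta-galactosidase, had 0 counts in atprmt3 and 809 in rps2a2b, against 1285 and 1301 in Col, so that rps2a2b was at least 317-fold over the floor of atprmt3. AT4G29020, a glycine-rich protein gene, had 4551 counts in atprmt3 and 512 in rps2a2b, against 2348 and 2284 in Col, with the mutants on opposite sides. Neither was called (adjusted p = 0.222 and adjusted p = 0.91). AT3G53040, a LEA gene, had 262 counts in atprmt3 and 1694 in rps2a2b, against 31 and 21 in Col, and was called higher (adjusted p = 0.00194).

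The called genes also differed from the tested genes in properties that the test did not use. The median transcript length was 1440 bases for genes called higher and 1908 for genes called lower, beside 1716 over all genes tested and 915 for ribosomal proteins. The median log2 fold change declined with length, at 0.18 in the 4188 shortest genes and -0.12 in the 4185 longest, and the share called higher was 4.61% and 1.41% in these. The length trend moved with the ribosomal protein result, and its removal, with that of GC content, left medians of 0.36 for 40S and 0.50 for 60S genes, with 15 and 47 genes called higher. The median level in Col was 9.86 CPM for genes called higher and 67.4 CPM for genes called lower. Genes of a single exon made up 15.7% of those called higher, 26.1% of those called lower and 17.2% of those tested. The share of tested genes called lay between 5.09% on chromosome 1 and 6.44% on chromosome 2.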

How the data were processed

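Transcripts were measured in 1 atprmt3, 1 rps2a2b and 2 Col libraries, grouped by the genotype label. For each of 33341 genes the authors deposited raw counts of reads, whole and not normalized. The authors used TopHat2, HTSeq and edgeR with the TAIR10 genome, per the submitters' processing notes, which give no versions. Per the labels' protocols the libraries keep the strand by dUTP marking, and the strand setting of the counting was not given in the sources used here, so overlapping genes on opposite strands are uncertain. Summary lines, such as reads on no gene, were dropped. Gene names, positions and promoters came from RefSeq's TAIR10.1 annotation, which matched 33056 of the gene IDs.

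The joint fit used edgeR 4.0.16 under R 4.3.3 on 3 samples (atprmt3, rps2a2b and the summed Col libraries). Genes were kept by filterByExpr with a minimum count of 10 and a minimum total of 15. Counts were scaled by TMM, with factors of 1.00, 1.05 and 0.954 for atprmt3, rps2a2b and Col, and tested by glmQLFit and glmQLFTest with 1 residual degree of freedom (prior degrees of freedom 16.4). Genes were called at 0.05 after Benjamini-Hochberg adjustment over all genes tested. The fit was checked on simulated counts. Nothing in the labels says that libraries came from separate cultures. The p-values rest on the spread between the atprmt3 and rps2a2b libraries. In that spread differences of genotype, culture and technique cannot be told apart. Levels are TMM-scaled CPM, and floors cover counting error only. The standard errors given after ± come from the fit and include the spread between the mutants, moderated over genes. The floor of a count of 0 is 3 counts, 0.101 CPM in Col. Uniqueness is the share of exonic 50-base words found once in the genome.

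Members and gene lists were chosen with earlier results of these data known. The genes named are PRMT3, RPS2A and RPS2B, the 12 largest changes each way among called genes averaging 5 CPM or more, the 4 most abundant called members of each list, the 3 most abundant called genes each way, and the 4 largest ratios between the mutants at 20 CPM or more. The uncalled member of a list with the largest change could be added. AT3G57490, AT2G40010, NUC-L2, CYCB1;1, DFR, LDOX, PS2, FER2, FRO4, CAB1, LHB1B1, LHCB4.3, IAA2, IAA29, AT3G54500, RVE2, TPS11, AT5G64120, GSTF6, GSTF7 and AT4G12490 were named after their values were seen. Alternatives were RLE and upper-quartile factors, no filter on low counts, at least 50 summed counts, DESeq2 1.42.0, limma-voom (limma 3.58.1), the older quasi-likelihood fit, a robust prior, Col as 2 samples, each library left out, and, chosen after seeing the data, removal of a trend with length and GC content. The RPS2A and RPS2B loci follow common nomenclature, as the labels name none.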

Additional observations from a re-analysis of the deposited data

Results flagged for a closer look

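In 3 of the named genes the mutants lay on opposite sides of Col, and this difference was not tested, since each mutant is 1 library. The log2 ratio of rps2a2b over atprmt3 was -1.56 for XW6, the gene taken as RPS2A, which was below Col in rps2a2b and above Col in atprmt3. It was 1.49 for PRMT3, which was below Col in atprmt3 and above Col in rps2a2b. It was -2.92 for AT4G29020, a glycine-rich protein gene, which was above Col in atprmt3 and below Col in rps2a2b. The first pair are the genes the mutants are named for, each lowest in its own mutant.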

How the results depend on the processing

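All 689 genes called higher and all 513 called lower kept their direction in each of the 12 alternatives that gave calls. The number called higher lay between 479 and 914 and stayed within 1.5 times of 689, except with Col as 2 samples, where 2508 genes were called, 663 of them shared. The number called lower was 336 with no filter on low counts, 254 with DESeq2 (232 shared) and 2208 with Col as 2 samples (511 shared), and between 365 and 722 otherwise. With Col as 2 samples the agreement of the Col pair enters the spread, and with no filter more genes are tested. The cause of the changes in number was not tested for any setting. Leaving out Col replicate 1 or 2 gave 494 or 479 genes higher and 379 or 375 lower. Leaving out a mutant leaves no residual degree of freedom, so those settings gave fold changes and no calls. Leaving out a mutant turned the log2 fold change over Col of 3 genes, which ranged between -1.06 (without atprmt3) and 0.51 (without rps2a2b) for XW6, between -1.22 (without rps2a2b) and 0.27 (without atprmt3) for PRMT3, and between -2.27 (without atprmt3) and 0.65 (without rps2a2b) for AT4G29020. Of 157 named genes, 36 lost their call with DESeq2, 28 with no filter, 25 with limma-voom and 23 with a robust prior. Without Col replicate 1 the call was lost for 22 and without Col replicate 2 for 26, in both cases for PCNA1, PCNA2, GSTU24, FMO1, CAB3, AT1G67430, BBX21, PETE1, PIN4, FER4, TPS5, WRKY18, IAA29, RVE2, MYB111 and AT5G64170. PMDH1, FER2, AT5G02960 and ATMG00020 lost it without replicate 1 alone, and ADH1, CDT1A, RAPTOR1, AT3G57490, NDB2, EIF4E, CDC20.2 and PORA without replicate 2 alone. OLEO3 and AT5G59970, not described in the text, lost it in both. No paired analysis was possible because no mutant library belongs to a particular Col library. No gene under 1 CPM was called, where the mutants also differed most from each other (median absolute log2 ratio 1.23), and no other depth was tried.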
